A study of Mus musculus with 18 samples.

Results

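The mitotic gene programme was examined in sorted bone marrow progenitors of lupus-prone NZBW/F1 mice and of C57BL/6 mice. It comprised 38 genes, chosen by symbol, that act in the G2 and M phases of the cell cycle. All 38 were found among the 20639 genes listed in at least 1 of the 2 expression tables, and all 38 were present in both tables. Cells that prepare for division make cyclins A and B, which switch on the kinase CDK1. The spindle then forms, kinetochores attach chromosomes to microtubules, a checkpoint holds anaphase until every chromosome is attached, and the anaphase-promoting complex destroys cyclin B so that the cell can divide. Transcripts of these genes build up from G2 to mitosis and are low in resting cells, which is why they are commonly read as a sign of cycling, and most long-term haematopoietic stem cells are known to rest outside the cycle.

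Both LSK cells and myeloid progenitors were profiled by RNA sequencing of bone marrow from female mice. LSK, the lineage-negative Sca-1+ c-Kit+ fraction that holds stem cells and multipotent progenitors, came from 4 groups of 3 samples. F1-P were NZBW/F1 mice before disease at 12 weeks of age and F1-L were NZBW/F1 mice with lupus at 28 to 36 weeks. B6-Y and B6-O were C57BL/6 control mice matched to these ages. Common myeloid progenitors (CMPs), which give rise to granulocytes, monocytes, erythrocytes and platelets, came from F1-P and F1-L mice only, with 3 samples each. NZBW/F1 is the cross of NZB and NZW mice, in which females develop lupus with age, so that within this strain disease and age cannot be told apart, and the strain itself differs in every comparison with C57BL/6. For CMPs a legend of the study can be read as several mice pooled in each replicate, and for LSK the sources used here do not say whether samples were separate mice or pools, so p-values measure the spread between these samples.

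The LSK libraries held 23772252 to 28493747 reads in genes and the CMP libraries 20001328 to 24761060. Values are given as scaled CPM, which are depth-normalised read counts (CPM) divided by a further scaling factor for each library. The lowest level of any of the 38 genes was 276 reads, for Ttk in LSK F1-P replicate 2, so counting error was small throughout. All 38 genes passed the filter on low values in each comparison. Kit, which encodes one of the sorting markers, lay between 257 and 657 scaled CPM in LSK. Ly6a, which encodes the sorting marker Sca-1, differed by strain, at 35.5 to 113 in C57BL/6 LSK and 293 to 879 in NZBW/F1 LSK. RNA of other cells was also found. Immunoglobulin genes took 16.8% to 36.6% of the reads in NZBW/F1 LSK, against 0.301% to 4.76% in C57BL/6 LSK. Because these are bulk samples, fewer cells in mitosis and less of a transcript in each cell cannot be told apart. Neither can be told apart from a larger share of RNA of other cells in a library.

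Many promoters of mitotic genes carry a cell cycle genes homology region (CHR), bound by the DREAM complex in resting cells and by MuvB with B-MYB and FOXM1 in dividing cells, together with CCAAT boxes bound by NF-Y. RefSeq promoter windows, from 250 bases before to 50 after the start (build GRCm38.p6), were at hand for 33 of the 38 genes, and Ccna2, Aurkb, Tpx2, Kif20a and Foxm1 had none. The CHR was searched as TTTGAA or TTCGAA, the CCAAT box as CCAAT and an E2F-like element as GCGGGAA, each on both strands. TTCGAA reads the same on both strands, and a CHR and a CCAAT word can share 1 base, as they do in the window of Cdca8. A CHR lay in 27 of the 33 windows (81.8%), against 21.7% of the 27025 genes with a window. CCAAT lay in 26 of 33 (78.8%, against 41.1%), both words together in 24 (72.7%, against 8.6%), and the E2F-like word in 1 (3.0%, against 5.3%), which was that of Ncapg. A letter match is a description of the window and not evidence of binding.

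The bases upstream of 5 starts are shown because these genes represent the steps described below and because they show CCAAT and CHR words in differing number and order. Capitals mark a CCAAT box (CCAAT or ATTGG) or a CHR (TTTGAA or TTCAAA), written 5′ to 3′ on the strand of the gene and ending before the first annotated exon. They stand at chr19:37376232-37376381 on the plus strand for Kif11, at chr10:69352939-69353062 on the minus strand for Cdk1, at chr9:70421555-70421704 on the minus strand for Ccnb2, at chr4:118437353-118437493 on the minus strand for Cdc20, and at chr7:135716380-135716529 on the minus strand for Mki67.
Kif11: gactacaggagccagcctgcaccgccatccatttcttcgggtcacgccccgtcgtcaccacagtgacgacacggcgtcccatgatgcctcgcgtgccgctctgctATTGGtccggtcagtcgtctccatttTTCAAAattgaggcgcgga
Cdk1: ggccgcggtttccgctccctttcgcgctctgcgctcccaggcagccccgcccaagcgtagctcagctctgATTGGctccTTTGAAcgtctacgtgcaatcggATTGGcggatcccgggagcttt
Ccnb2: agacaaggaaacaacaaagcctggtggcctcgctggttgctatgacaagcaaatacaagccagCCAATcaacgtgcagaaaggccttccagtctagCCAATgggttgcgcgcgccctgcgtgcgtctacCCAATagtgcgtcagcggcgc
Cdc20: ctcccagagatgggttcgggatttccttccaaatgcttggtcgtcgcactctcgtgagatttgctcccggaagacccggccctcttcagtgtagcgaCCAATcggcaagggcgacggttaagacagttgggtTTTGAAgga
Mki67: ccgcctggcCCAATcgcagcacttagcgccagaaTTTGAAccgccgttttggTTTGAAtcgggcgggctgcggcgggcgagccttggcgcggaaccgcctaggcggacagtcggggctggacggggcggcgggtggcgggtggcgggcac

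In Kif11 the CHR begins 19 bases and the CCAAT box 45 bases before the start, and in the printed stretch of Cdc20 they begin 18 and 53 bases before it. In Cdk1 another CHR lies nearer the start than the printed stretch. In Ccnb2, 3 CCAAT boxes begin 87, 54 and 21 bases before the start, and its CHRs lie outside the printed stretch. In Mki67 both CHRs are further away, at 116 and 98 bases before the start.

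In LSK, the 38 genes were lower in NZBW/F1 than in C57BL/6 mice. Reads of both strains were aligned to the same genome (mm10), and any part of strain differences in sequence in these values was not tested. The mean of log2(scaled CPM + 1) over the 38 genes was 6.50, 6.19 and 6.40 in the 3 B6-Y samples and 6.00, 6.57 and 6.06 in the 3 B6-O samples. It was 5.93, 5.41 and 5.65 in F1-P and 5.99, 5.69 and 5.75 in F1-L. All 6 NZBW/F1 samples thus lay below all 6 C57BL/6 samples, while F1-P and F1-L overlapped, as did B6-Y and B6-O. The gap between the strains was narrow and was lost with median-of-ratios scaling, where F1-L replicate 1 stood at 5.99 and B6-O replicate 1 at 5.98. In CMPs the mean was 7.50, 7.16 and 6.98 in F1-P and 7.10, 7.45 and 7.15 in F1-L, and these groups overlapped as well. The CMP table was normalised apart from the LSK table, so the higher level in CMPs stands beside that in LSK without a test.

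**Figure D1:**
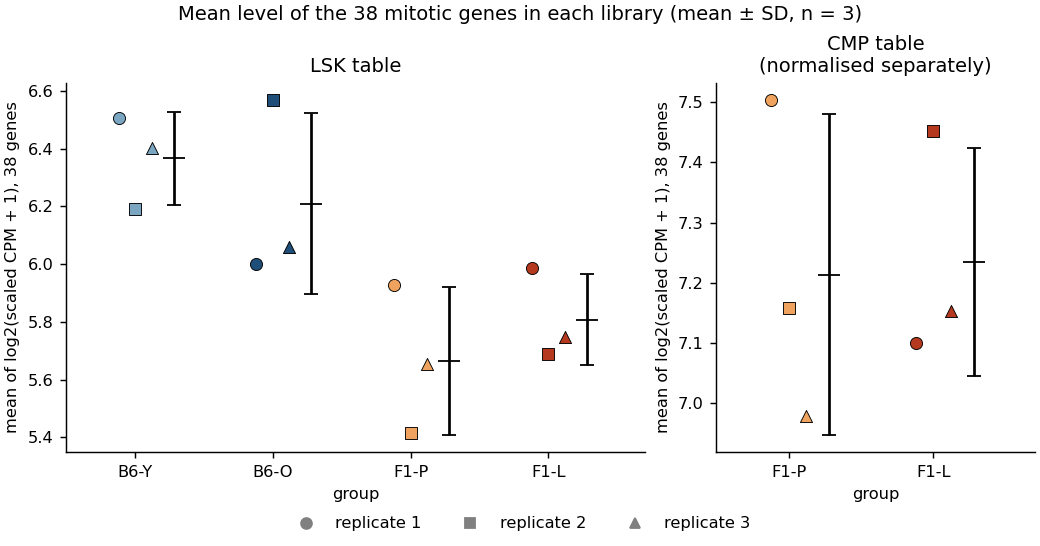
Mean of log2(scaled CPM + 1) over the 38 mitotic genes in each library, by group, for LSK (left) and CMPs (right, normalised separately). Points are libraries, shaped by replicate number, and bars give the mean ± SD of 3. In LSK the F1-P and F1-L points lie between 5.41 and 5.99, and the C57BL/6 points between 6.00 and 6.57.

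The levels of the 38 genes differed widely among themselves. Per kilobase of annotated exon in B6-Y LSK, mean levels ran from 5.65 scaled CPM for Ccnf, the F-box protein cyclin F, to 62.1 for Ncapd2, a condensin subunit. The next highest were Top2a, topoisomerase IIα, at 61.5 and Mki67, the proliferation antigen Ki-67, at 60.2. In F1-P LSK the same ends of the order were 2.82 for Ccnf and 45.5 for Mki67, with Ncapd2 at 30.8. In CMPs of F1-P mice, Mki67 stood at 150 scaled CPM per kilobase and Ndc80, a kinetochore component, at 8.96.

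To ask whether LSK of lupus-prone mice already differed before disease, F1-P was compared with B6-Y. All 38 mitotic genes were lower in F1-P, and 21 of them fell when calls required a fold change over 1.5 and a Benjamini-Hochberg adjusted p no higher than 0.05 (limma on log2(scaled CPM + 1) across 14380 genes). Among all genes tested 54.7% were fitted lower and 6.18% fell, and none of the 38 rose while 10% of all genes did. The median log2 fold change of the 38 was −0.68, against −0.04 over all genes. In 31 of the 38 every F1-P sample lay below every B6-Y sample, which was so for 18.1% of all genes.

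Calls were counted by functional class, and some classes had none. Whether the classes differ was not tested. Class medians were all negative, from −0.52 for chromosome structure to −0.78 for centromere and kinetochore genes. The class counts make up the total of 21, which depended on single libraries as given below. All 5 genes of the spindle midzone and cytokinesis fell, namely Kif20a, Kif23, Prc1, Racgap1 and Anln, with log2 fold changes of −0.63 to −0.89. Of the 8 mitotic kinases and cyclins 5 fell, namely Ccna2, Ccnb2, Ccnf, Cdk1 and Aurka. Of the 6 centromere and kinetochore genes 4 fell (Cenpa, Cenpe, Ndc80 and Nuf2), and of the 6 spindle motors and spindle proteins 4 fell (Kif11, Kif4, Kif2c and Hmmr). Only 1 of 4 genes of chromosome structure fell, Ncapd2, 1 of 2 chromosomal passenger genes, Cdca8, and 1 of 2 transcription factors, Foxm1. None of the 3 spindle checkpoint kinases (Bub1, Bub1b and Ttk) and neither Cdc20 nor Ube2c, the activator and the E2 enzyme of the anaphase-promoting complex, passed, although their log2 fold changes were −0.53 to −0.66.

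Kif11, the kinesin that pushes spindle poles apart, had the largest difference. Its level was 243, 185 and 187 scaled CPM in B6-Y and 115, 79.3 and 92.2 in F1-P. Every F1-P sample lay well below every B6-Y sample, and the log2 fold change was −1.10 (SE 0.18, adjusted p = 0.00499, limma), or 0.467 times the B6-Y level. Ncapd2, which compacts chromosomes as part of condensin I, was measured at 420, 342 and 406 in B6-Y and at 231, 170 and 179 in F1-P. The groups again stood apart, with a fitted log2 change of −1.01 (SE 0.17, adjusted p = 0.00514). Ccnf was 48.7, 39.8 and 43.6 in B6-Y and 22.4, 17.97 and 25.7 in F1-P, which is −0.98 on the log2 scale (SE 0.17, adjusted p = 0.00663).

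Cenpa, the histone H3 variant that marks the centromere, spread more within its groups. It read 194, 257 and 145 in B6-Y and 129, 81.6 and 77.1 in F1-P, with no overlap and a difference of −1.05 in log2 (SE 0.26, adjusted p = 0.0297). Kif23, a motor of the cytokinetic midzone, read 160, 141 and 152 in B6-Y and 105, 66.7 and 75.7 in F1-P. The groups did not overlap, at −0.89 on the log2 scale (adjusted p = 0.0121). The remaining genes among the 10 largest changes were Ndc80 (−0.88) and Cenpe (−0.85) of the kinetochore, Ccnb2 (−0.84), and the motors Kif4 (−0.84) and Kif2c (−0.80).

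Cdk1, the kinase that drives entry into mitosis, was 110, 79.5 and 101 in B6-Y and 70.0, 48.0 and 56.3 in F1-P. The highest F1-P sample stayed below the lowest B6-Y sample, and the log2 fold change was −0.73 (SE 0.18, adjusted p = 0.0305). Foxm1, a transcription factor that activates G2 and M phase genes, was 121, 109 and 95.9 in B6-Y and 82.6, 62.9 and 64.9 in F1-P. It fell by 0.63 on the log2 scale (adjusted p = 0.0277).

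Of the most used proliferation markers, several did not pass the same threshold. Mki67 was 692, 678 and 448 in B6-Y and 472, 424 and 477 in F1-P, so that B6-Y replicate 3 lay within the F1-P values. At −0.38 on the log2 scale (SE 0.21, adjusted p = 0.258, 95% interval −0.85 to 0.10) it differed least of the 38. Top2a was 634, 483 and 547 in B6-Y and 472, 333 and 342 in F1-P, without overlap, at −0.54 (adjusted p = 0.0962). Plk1 (−0.75, adjusted p = 0.0519) and Aurkb (−0.62, adjusted p = 0.0542), kinases of mitotic entry and of chromosome attachment, missed the threshold narrowly. Ccnb1, the cyclin partner of CDK1, had −0.57 (adjusted p = 0.0656) and Cdc20 had −0.58 (adjusted p = 0.107).

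**Figure D2:**
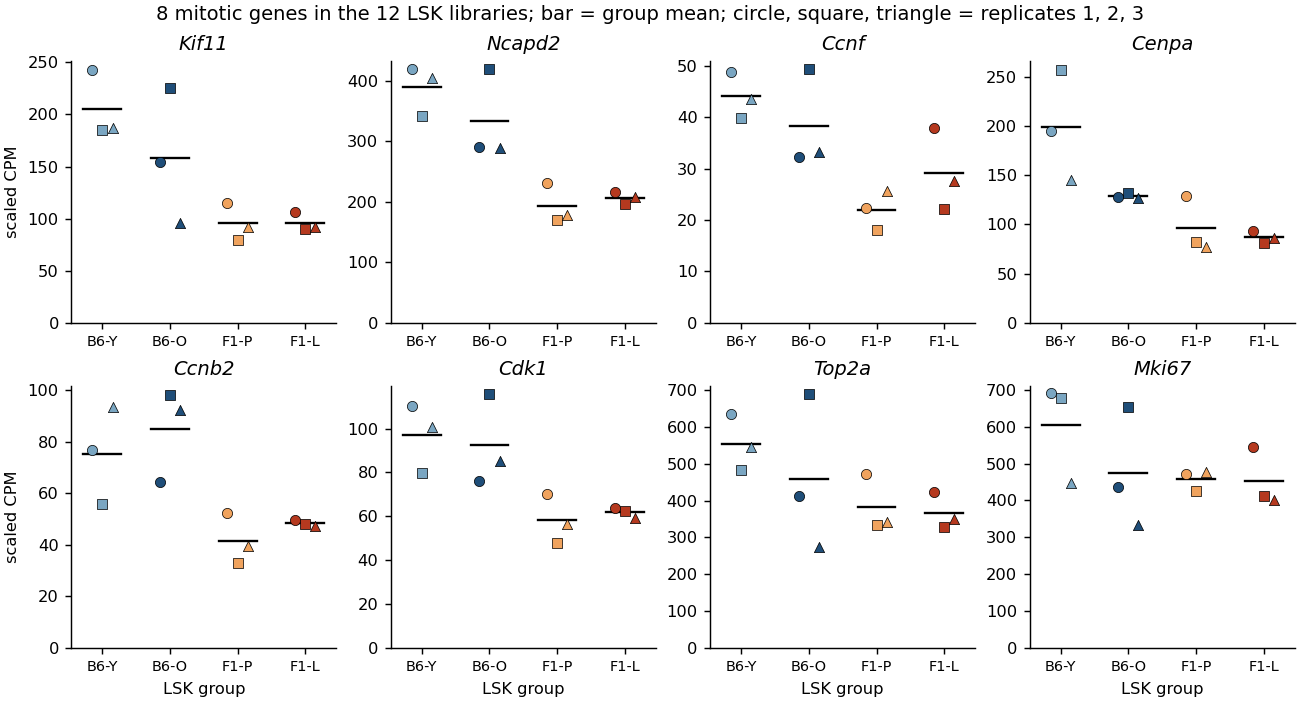
Scaled CPM (vertical axes, from 0) of 8 mitotic genes in the 12 LSK libraries by group, with points shaped by replicate number and a bar at each group mean. For Kif11, Ncapd2, Ccnf, Cenpa, Ccnb2, Cdk1 and Top2a all 3 F1-P points lie below all 3 B6-Y points, whereas for Mki67 the B6-Y sample at 448 lies among the F1-P values of 424 to 477.

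The count of 21 depended on single libraries. With B6-Y replicate 1 left out 3 of the 38 fell, with B6-Y replicate 2 left out 23, with B6-Y replicate 3 left out 11, with F1-P replicate 1 left out 32, with F1-P replicate 2 left out 3 and with F1-P replicate 3 left out 5. Kif11, Ncapd2 and Ccnf were called with each of the 6 libraries left out in turn, and the median of the 38 stayed between −0.82 and −0.56.

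Markers of other cells and of the progenitors themselves moved with this comparison. All 9 plasma cell genes rose in F1-P, with a summed level of 14650 to 37940 scaled CPM against 791 to 1991 in B6-Y, and 6 of 7 T and NK cell genes rose, from 41.1 to 73.6 in B6-Y to 147 to 177 in F1-P. Of 10 genes of LSK and early progenitors, Cd34, Flt3, Hlf and Meis1 fell and Ly6a, which encodes the sorting marker Sca-1, rose by 3.53 on the log2 scale, with a list median of −0.53. The summed level of these 10 genes was 1835 to 2307 in F1-P and 2203 to 2757 in B6-Y. No gene of these 3 lists was at 0 in an LSK library. Their part in the lower mitotic transcripts was not tested.

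Genes with a CHR in the window and genes without one were both lower. Among the genes that fell, 16 of 18 with a window held a CHR, and among those that did not pass, 11 of 15 did. The median log2 fold change was −0.72 for the 27 genes with a CHR and −0.59 for the 6 without.

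The comparison of F1-L with B6-O asked the same of the older age, with disease present. All 38 genes were again lower in NZBW/F1, as were 52.4% of all genes, but only Ccnb2, a B-type cyclin, fell by both criteria, where 3.75% of all 14381 genes did so. Its level was 64.3, 98.4 and 92.5 scaled CPM in B6-O and 49.8, 48.2 and 47.3 in F1-L. The F1-L samples were close together and all lower, by a log2 change of −0.78 (SE 0.18, adjusted p = 0.0329, limma). The median of the 38 was −0.44, against −0.03 over all genes. In 14 of the 38 the groups did not overlap, compared with 20% of all genes lower without overlap, and 15 had an unadjusted p below 0.05, compared with 12.7%.

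Cenpa, singled out after its values were seen, was 128, 132 and 127 in B6-O and 92.8, 80.6 and 86.5 in F1-L. Its groups stood apart and its adjusted p was 0.0201, but at −0.57 on the log2 scale (SE 0.11) it was short of the fold criterion. Ncapd2 was 291, 419 and 288 in B6-O and 216, 196 and 209 in F1-L, without overlap, at −0.66 (adjusted p = 0.0580). Cdk1 was 76.3, 116 and 85.4 in B6-O and 63.8, 62.6 and 59.3 in F1-L, also without overlap, at −0.55 (adjusted p = 0.0852). For each of these genes B6-O replicate 2 was the highest sample.

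Kif11 was 155, 225 and 95.9 in B6-O and 106, 90.0 and 91.5 in F1-L, where B6-O replicate 3 lay within the F1-L values, at −0.64 (adjusted p = 0.209). Cdc20 had a log2 fold change of −0.46 (adjusted p = 0.152). Mki67 differed least, with 437, 655 and 334 in B6-O and 544, 413 and 400 in F1-L and a log2 fold change of −0.03 (95% interval −0.67 to 0.62). The 3 B6-O samples of Mki67 enclosed all 3 F1-L samples. None of the 8 genes fixed to stand for the roles (Mki67, Top2a, Ccnb1, Cdk1, Plk1, Cdc20, Aurkb and Foxm1) passed here, and their log2 fold changes ran from −0.55 for Cdk1 to −0.03 for Mki67.

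The number that fell was 0 with B6-O replicate 2, F1-L replicate 1, F1-L replicate 2 or F1-L replicate 3 left out, 2 without B6-O replicate 1 and 4 without B6-O replicate 3. On whole reads recovered from the values it was 3 by edgeR's quasi-likelihood test, 7 by its likelihood ratio test and 3 by DESeq2, where 4.27%, 5.96% and 5.3% of all genes fell. Plasma cell genes were higher here too, with 7 of 9 passing and summed levels of 9754 to 13060 in F1-L against 258 to 2542 in B6-O. Mature neutrophil genes summed to 1983 to 12370 in F1-L and to 832 to 10720 in B6-O, with none of 11 passing. Of 7 T and NK cell genes 3 rose, with sums of 122 to 253 in F1-L against 59.0 to 100.2 in B6-O, and all 8 genes of myeloid progenitors were fitted higher (median 1.35) with none passing. Ly6a rose by 2.68 on the log2 scale, and Cd34, Hlf and Meis1 fell. Their part in the difference was not tested.

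**Figure D3:**
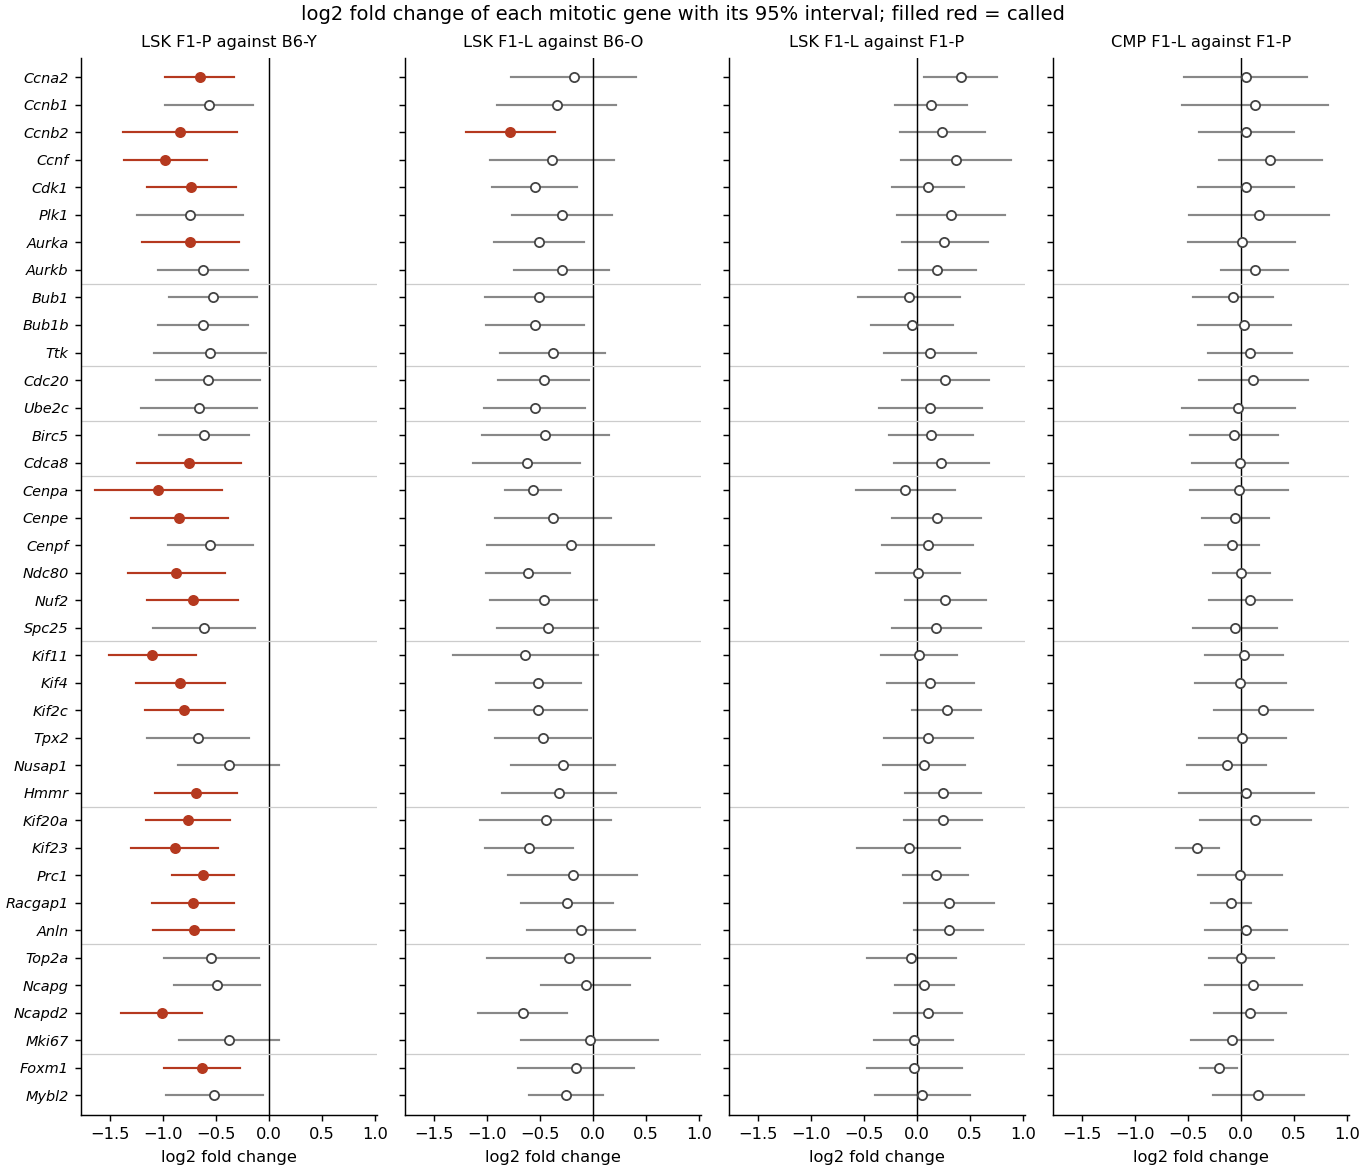
log2 fold change (horizontal axes) of each of the 38 genes, grouped by role between grey lines, with its 95% interval in 4 comparisons. Filled red points passed both criteria. 21 points are red for F1-P against B6-Y and 1 for F1-L against B6-O, and none in the F1-L against F1-P panels for LSK and CMPs.

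The disease comparison within NZBW/F1 LSK, F1-L against F1-P, gave no call among the 38 genes, and only 0.0279% of 14332 genes passed. It shares its samples with both strain comparisons above. In F1-L 31 of the 38 were fitted higher and 7 lower, where 48.2% of all genes were fitted higher. Their median was 0.13 on the log2 scale, against −0.01 over all genes, and they ran from −0.11 for Cenpa to 0.42 for Ccna2. The edgeR quasi-likelihood test, the likelihood ratio test and DESeq2 also called 0 of the 38, while they called 3, 657 and 734 genes in all (0.0209%, 4.58% and 5.13%). Cyclin A2, encoded by Ccna2 and active from S phase to early mitosis, was the only gene of the 38 with an unadjusted p below 0.05 (8.58% of all genes were higher at that level). It was 67.2, 64.7 and 59.2 in F1-P and 105, 79.6 and 73.9 in F1-L, and the F1-L samples all lay higher. On the log2 scale it was 0.42 higher (SE 0.15, adjusted p = 0.307, 95% interval 0.07 to 0.76).

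Ccna2 and Kif2c, a kinesin that takes microtubules apart at kinetochores, were the 2 genes whose F1-L and F1-P samples did not overlap, against 10.4% of all genes that were higher without overlap. Kif2c read 21.6, 17.97 and 22.4 in F1-P and 28.4, 23.0 and 24.6 in F1-L, with a log2 fold change of 0.28 (adjusted p = 0.456). Ccnf had 0.37 (adjusted p = 0.549) and Plk1 0.32 (adjusted p = 0.599). Mki67 had −0.03 (95% interval −0.40 to 0.34) and Top2a −0.05 (95% interval −0.47 to 0.37). Both genes overlapped between the groups. None of the 8 fixed genes passed, and their log2 fold changes ran from −0.05 for Top2a to 0.32 for Plk1.

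Other cell markers moved in this comparison as well. All 11 genes of mature neutrophils were fitted higher in F1-L (median 2.99 on the log2 scale), and their summed level was 301 to 1281 scaled CPM in F1-P and 1983 to 12370 in F1-L. All 8 genes of myeloid progenitors were fitted higher (median 1.69) and all 11 of B lineage progenitors lower (median −1.43). All 9 plasma cell genes were fitted lower (median −0.77). None of these genes passed both criteria, and their part in the values of the mitotic genes was not tested.

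Age in C57BL/6 LSK, the control for the age difference between F1-P and F1-L, gave no call among 14005 genes by limma, with 927 genes at an unadjusted p below 0.05, and 0% were therefore called either way. With edgeR's quasi-likelihood test 0 genes passed, with its likelihood ratio test 114 (0.814%) and with DESeq2 207 (1.48%), none of them among the 38. Of the 38 mitotic genes 31 were fitted lower in B6-O and 7 higher, with a median of −0.13 against 0.02 over all genes, of which 47.1% were fitted lower. Cenpa (−0.58, adjusted p = 0.627), Foxm1 (−0.50, adjusted p = 0.722) and Kif23 (−0.36, adjusted p = 0.726) had unadjusted p below 0.05, where 3.37% of all genes were lower at that level, and Kif23 was named after its values were seen. The groups did not overlap for Cenpa and Kif23, against 5.57% of all genes lower without overlap. Mki67 had a log2 fold change of −0.38 (adjusted p = 0.841), and Ccnb2 was highest of the 38 at 0.18. Markers of other cells moved with age here too. All 11 mature neutrophil genes were fitted higher in B6-O (median 1.13) and all 11 of B lineage progenitors lower (median −2.23). Of 9 plasma cell genes 8 were fitted lower (median −0.82), and of 8 myeloid progenitor genes 4 were higher and 4 lower (median 0.02). Their part in the values of the mitotic genes was not tested.

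Whether the change from the younger to the older mice differed between the strains was tested across all 12 LSK samples. No member and none of 15084 genes passed by limma (0%), with 591 genes at an unadjusted p below 0.05, and the edgeR quasi-likelihood test, the likelihood ratio test and DESeq2 called 0, 10 and 29 genes (0%, 0.0663% and 0.193%) with none of the 38. All 38 were fitted above 0, from 0.02 for Bub1 to 0.60 for Anln (median 0.30, against 0.00 over all genes, of which 49.9% were fitted above 0). An unadjusted p below 0.05 was reached by 0 of the 38 and, above 0, by 2.86% of all genes. Anln, the cleavage furrow scaffold anillin, had the smallest p of these, 0.0556 (SE 0.28, adjusted p = 0.977), and Ccnf had 0.59 (adjusted p = 0.977). The same contrast is the difference between the older and the younger strain comparison, so the 21 calls at the younger age and the 1 at the older age were not shown to differ.

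In CMPs of F1-L against F1-P mice, 0 of the 38 genes passed, and 0.00774% of 12926 genes did. The edgeR quasi-likelihood test, the likelihood ratio test and DESeq2 called 1, 308 and 351 genes (0.00774%, 2.38% and 2.72%) with 0 of the 38. In F1-L 23 of the 38 were fitted higher, as were 58% of all genes, and 15 lower, and their median of 0.03 on the log2 scale stood against 0.04 over all genes. Kif23 and Foxm1 were the 2 genes with an unadjusted p below 0.05 and without overlap, both lower, where 5.25% of all genes were lower at that p and 6.57% lower without overlap. Kif23 was 140, 132 and 146 scaled CPM in F1-P and 97.1, 109 and 108 in F1-L. The log2 fold change was −0.41 (SE 0.08, adjusted p = 0.353, limma), 0.752 times the F1-P level.

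Foxm1 was 125, 121 and 128 in CMPs of F1-P mice and 112, 107 and 104 in those of F1-L mice. The samples of each group were close together, and the log2 fold change was −0.21 (SE 0.07, adjusted p = 0.473). Ccnf, the highest of the 38, had 0.28 (adjusted p = 0.666), with 93.5, 74.2 and 65.3 in F1-P and 81.7, 121 and 82.6 in F1-L. Mki67 was 1709, 1453 and 1373 in F1-P and 1286, 1714 and 1317 in F1-L, with a log2 fold change of −0.08 (95% interval −0.46 to 0.31). Top2a had 0.01 (95% interval −0.30 to 0.32). The F1-P replicate 1 and the F1-L replicate 2 were the high samples for both Mki67 and Top2a.

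All 11 neutrophil genes were fitted lower in F1-L CMPs, with a median of −4.21, summing to 64.2 to 431 scaled CPM in F1-L and to 315, 6453 and 8442 in the F1-P replicates 1, 2 and 3. In F1-P, replicate 1, with the least neutrophil signal, was thus also the replicate with the highest mitotic mean, 7.50 against 7.16 and 6.98. All 11 B lineage genes were fitted lower as well (median −1.82). None of these passed both criteria, and their part was not tested.

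The 38 genes shared their order among replicates of a group. In F1-L LSK, replicate 1 held the highest value for 37 of the 38 genes, against 39.5% of all genes. In F1-P LSK, replicate 1 was highest for 34 and replicate 2 lowest for 35, against 38.4% and 34.6% of all genes. In B6-O, replicate 2 was highest for 35 (30.4% of all genes). In B6-Y, replicate 1 was highest for 26 (22.9% of all genes) and replicate 2 lowest for 31 (36.8%). The same held in CMPs, where F1-P replicate 1 was highest for 35 (44.4% of all genes) and F1-L replicate 2 for 36 (41.4%). The members are therefore not independent measurements, and a count over them carries the level of a few libraries.

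**Figure D4:**
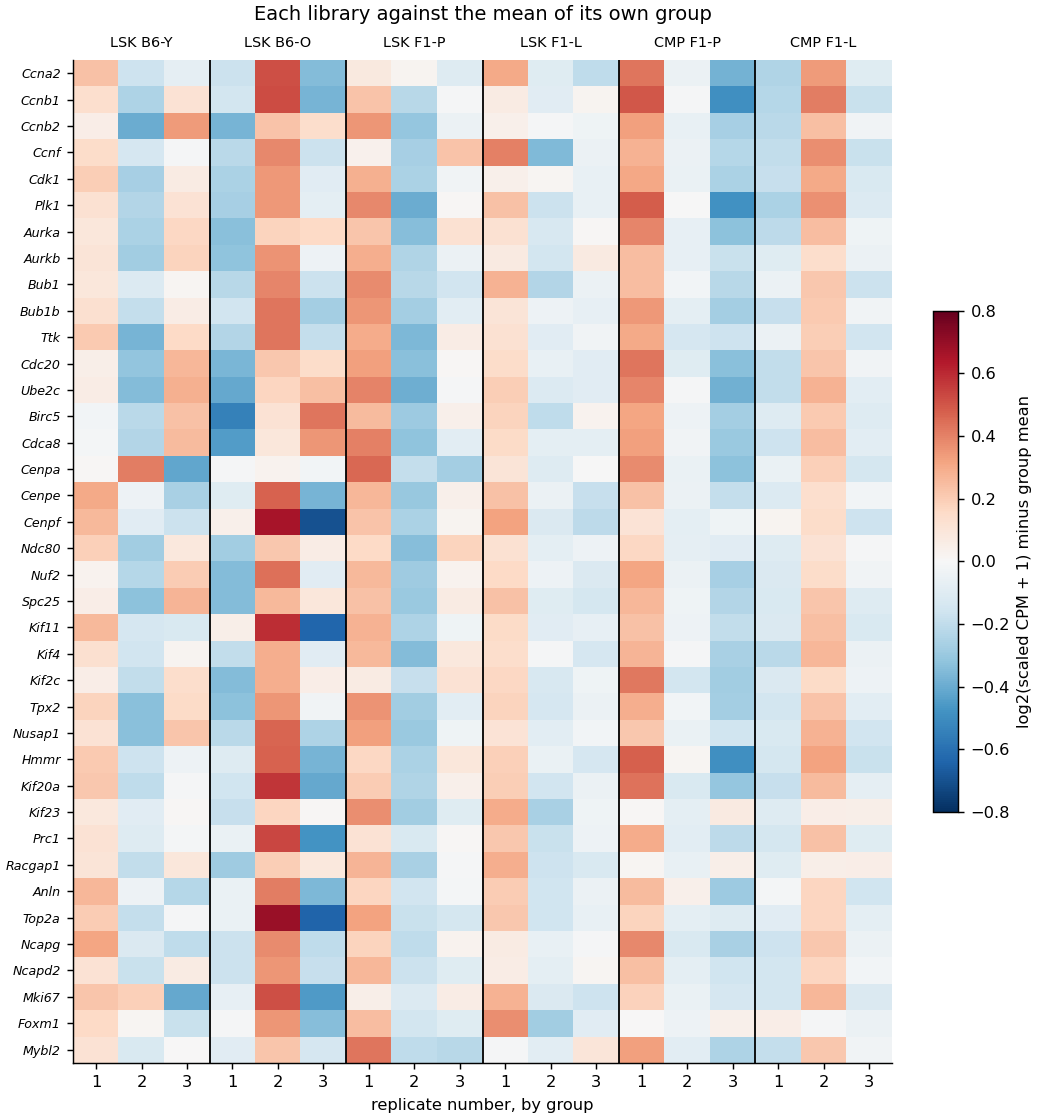
log2(scaled CPM + 1) of each of the 38 genes (rows) in each of 18 libraries (columns, by group and replicate number) after subtraction of its own group mean. Red is above and blue below the mean, on a colour scale from −0.8 to 0.8. Whole columns share a colour, as in F1-L replicate 1, which is highest for 37 of 38 genes, and F1-P replicate 2 of LSK, which is lowest for 35.

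Signal of other cells differed among the same replicates. In B6-Y the neutrophil sum was 499, 5441 and 485 scaled CPM in replicates 1, 2 and 3, and replicate 2, with the most, had the lowest mitotic mean, 6.19. In B6-O it was 1736, 832 and 10720, and replicate 2, with the least, had the highest mitotic mean, 6.57. In F1-P it was 301, 526 and 1281, and replicate 1, with the least, had the highest mitotic mean, 5.93. The other end of these groups did not follow the same order. B6-Y replicate 3, with the least, did not have the highest mitotic mean. B6-O replicate 3 and F1-P replicate 3, with the most, did not have the lowest. In F1-L the sum was 12370, 4905 and 1983, and there replicate 1, with the most, had the highest mitotic mean, 5.99. The plasma cell sum in F1-P was smallest in replicate 1, at 14650. It was largest in replicate 2, at 37940, which had the lowest mitotic mean, 5.41. In each group of LSK and CMPs the library with the smallest immunoglobulin share of reads had the highest mitotic mean. In LSK these were B6-Y replicate 1 (0.918%), B6-O replicate 2 (0.301%), F1-P replicate 1 (19.2%) and F1-L replicate 1 (16.8%). In CMPs they were F1-P replicate 1 (0.04%) and F1-L replicate 2 (0.015%). With the largest shares, replicate 3 of B6-O, of F1-L LSK and of F1-L CMPs did not have the lowest mean. The part of these cells in the mitotic level was not tested.

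Other cell cycle genes were taken from fixed lists to place these values. Of 40 further mitotic genes, 21 fell in F1-P against B6-Y, where 6.18% of all genes did. Of the 40, 39 were fitted lower, and the median was −0.68. Kifc1, a minus-end spindle motor, had the lowest log2 fold change, −1.10, and the condensin II subunit Ncapg2 fell as well. Pttg1, which encodes the separase inhibitor securin, was the exception and rose by 0.84 (adjusted p = 0.0324). In F1-L against B6-O, 3 of the 40 fell, namely Kifc1, Ckap2 and Cdca5, where 3.75% of all genes did. The median was −0.40.

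Genes of S phase and DNA replication were lower as well. Of 32 such genes, 31 were fitted lower in F1-P than in B6-Y with a median of −0.48, where 54.7% of all genes were fitted lower. Of these 32, 2 fell, the primase subunit Prim1 and the chromatin assembly factor Chaf1b (−0.91). That share was near the 6.18% of all genes that fell. In F1-L against B6-O, 30 of 32 were fitted lower with a median of −0.51. Among the 5 that fell were Mcm7, Gins1, Lig1 and Chaf1b (−1.11), where 3.75% of all genes fell. Within NZBW/F1, 15 of the 32 were fitted higher and 17 lower in F1-L, with a median of −0.02 and 0 calls.

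Upstream regulators went in both directions. Of 8 G1 cyclins and kinases, Ccnd1 fell (−0.94) and Ccnd2 rose (0.91) in F1-P against B6-Y, and in F1-L against B6-O only Cdk4 fell (−0.69). Of 10 CDK inhibitors and Rb family genes, 8 could be tested in LSK. Cdkn2c and Cdkn2d, inhibitors of CDK4 and CDK6, fell in F1-P against B6-Y (−1.20 and −0.76), and Cdkn2c fell again in F1-L against B6-O (−0.72). Over all genes, 6.18% fell and 10% rose in F1-P against B6-Y, and 3.75% fell in F1-L against B6-O. None of the 8 DREAM and MuvB genes passed in either, with medians of −0.18 in both. In F1-L against F1-P none of the genes of these 5 lists passed, in LSK or in CMPs.

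**Figure D5:**
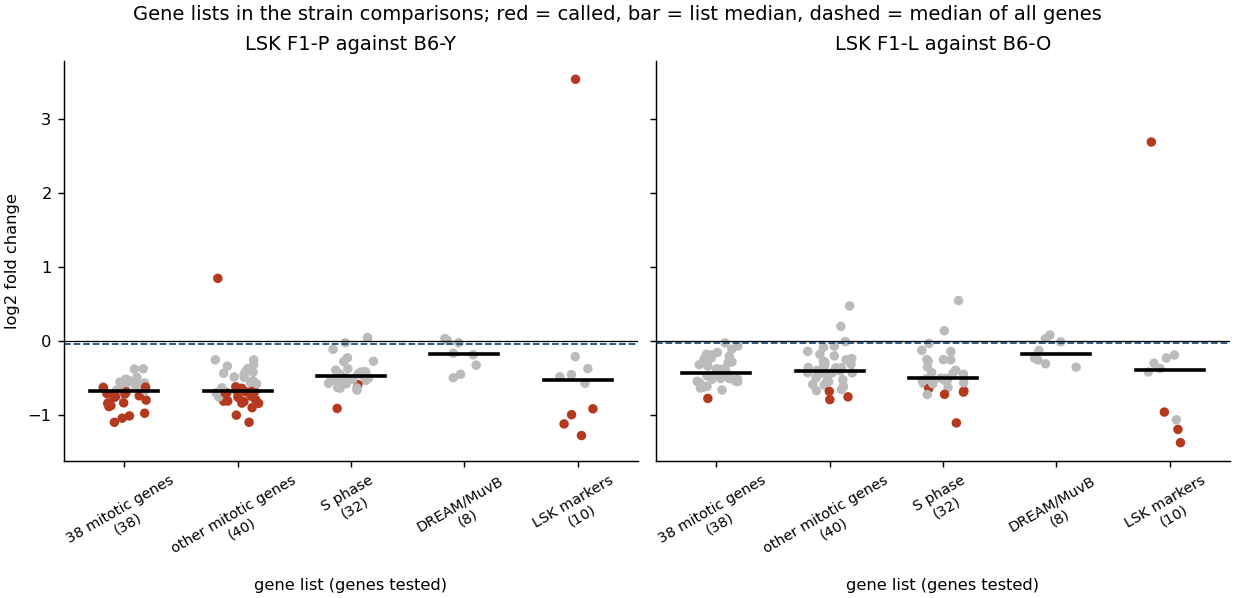
log2 fold change (vertical axis) of each gene of 5 lists (the 38 genes, other mitotic genes, S phase, DREAM and MuvB, and LSK markers) in F1-P against B6-Y (left) and F1-L against B6-O (right) in LSK, with calls in red, a bar at each list median and a dashed line at the median of all genes. The medians of the 38 genes and of the other mitotic genes lie at −0.68 and −0.68 at the younger age and at −0.44 and −0.40 at the older age. The high red point among the LSK markers is Ly6a.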

How the data were processed

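LSK and CMPs were sorted from bone marrow and sequenced as single-end mRNA libraries. According to the study, reads were aligned to mm10 (GRCm38) with STAR 2.6, counted per gene with HTSeq and tested with edgeR. The deposited tables hold a signal, CPM divided by the authors' scaling factor, in 12 LSK and 6 CMP columns (19780 and 18428 genes), and each table was normalised on its own. Whole reads were recovered for 100.0% of values (tolerance 0.05 reads). Gene identifiers were matched to GENCODE M21.

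For each comparison, limma 3.58.1 with a trended prior was fitted to log2(value + 1) of every gene with a value of at least 1 in at least 3 samples, in R 4.3.3, so fold changes of low genes are understated. Calls needed a fold change over 1.5 and an adjusted p no higher than 0.05, as in the study. The tests had been planned for plain CPM and fit the scaled values equally. Alternatives were edgeR 4.0.16 (quasi-likelihood and likelihood ratio tests) and DESeq2 1.42.0 on the recovered reads, other pseudocounts (0.1 and 0.5), filters and scalings, a replicate block, a robust prior, all 12 LSK samples in one fit, and each library left out. Scripts were tested on simulated data. No 2 replicates agreed within sampling noise.

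The 38 genes and all lists were chosen with earlier results of these data known. Members with statistics were drawn from the called genes (at most the 10 largest), the 3 highest and 3 lowest where fewer than 5 were called, and 8 fixed genes, Mki67, Top2a, Ccnb1, Cdk1, Plk1, Cdc20, Aurkb and Foxm1. Genes of other lists were drawn from those called or extreme. Not every gene these rules allow is named. Promoter windows were those of RefSeq, and 33 of 38 genes matched by symbol. The result of 1 gene of the S phase list is not reported here.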

Additional observations from a re-analysis of the deposited data

How the results depend on the processing

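The median log2 fold change of the 38 genes moved by less than the spread between replicates under every alternative, in 70 results with another setting and 42 with a library left out. This spread, the SD of the mean over the 38 genes, was 0.213 to 0.248. In F1-L against F1-P LSK, in B6-O against B6-Y and in CMPs it was larger than the median itself. A shift below it therefore says little about stability in those comparisons. With a library left out it ranged from −0.82 to −0.56 in F1-P against B6-Y, from −0.55 to −0.22 in F1-L against B6-O, from 0.01 to 0.27 in F1-L against F1-P, from −0.33 to −0.02 in B6-O against B6-Y, from 0.18 to 0.48 for the difference of age effects and from −0.10 to 0.18 in CMPs. Counts of called genes ranged from 3 to 32 in F1-P against B6-Y and from 0 to 4 in F1-L against B6-O with a library left out. A fit on fewer samples has fewer degrees of freedom. In F1-L against B6-O the count of 1 became 3 with the edgeR quasi-likelihood test, 7 with the likelihood ratio test, 3 with DESeq2 and 4 when the 12 LSK samples were fitted jointly, and the cause was not tested. In F1-P against B6-Y the settings other than left-out libraries gave 19 to 28. Calls over all genes differed most in F1-L against F1-P LSK (4 by limma, 657 and 734 by the likelihood ratio test and DESeq2) and in CMPs (1, 308 and 351), with 0 of the 38 in each.

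Replicate numbers did not pair the samples consistently across the comparisons. Deviations of same-numbered samples correlated at 0.326, 0.322 and 0.068 in F1-P against B6-Y, positive throughout. They correlated at 0.003, 0.061 and 0.050 in F1-L against B6-O and at −0.015, −0.043 and 0.026 in F1-L against F1-P LSK. B6-O against B6-Y gave 0.472, −0.356 and 0.316, and CMPs gave −0.454, −0.323 and 0.622. With a replicate block, 28 of the 38 were called in F1-P against B6-Y, 0 in F1-L against B6-O (Ccnb2, adjusted p = 0.0558 with limma) and 0 in the others.

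Fold changes near 0 changed sign. Mki67 in F1-L against B6-O was 0.008 with median-of-ratios scaling. Bub1 in the difference of age effects was −0.01 with TMM scaling without immunoglobulin genes, −0.016 with both edgeR tests and −0.004 with DESeq2. Top2a in CMPs was −0.008 with median-of-ratios scaling, −0.023 with both edgeR tests and −0.031 with DESeq2. With a library left out, F1-L against F1-P ran from −0.24 to 0.12 for Cenpa, from −0.16 to 0.11 for Top2a and from −0.169 to 0.053 for Mki67. Mki67 ran from −0.25 to 0.23 in F1-L against B6-O and from −0.21 to 0.014 in CMPs, Top2a in CMPs from −0.077 to 0.097, Ccnb2 in B6-O against B6-Y from −0.018 to 0.367, and Bub1 in the difference of age effects from −0.12 to 0.21.

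The lowest level of any mitotic gene of the programme was 276 reads, so counting error was small for these genes. Genes of the marker lists could be lower, such as Vpreb3 at 0.27 scaled CPM in a CMP sample of F1-L mice. Whether depth or the spread between 3 replicates limits the comparisons was not tested.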
